A study of Mus musculus with 59 samples.

Results

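Livers of mice fed LRD-5001, a standard rodent chow, were compared with livers of mice fed AIN-76A, a diet made from purified ingredients, in animals given no added arsenite. The arrays were chosen by their labels, which name the diet and the 5-week control condition: 5 carry LRD-5001 controls and 5 carry AIN-76A controls, so 10 of the 59 arrays of the series were compared. The 29 arrays of mice exposed to arsenite for 5 weeks entered the same fit to estimate the spread, and are compared at the end. All 45037 probe sets that are not controls were tested, of the 45101 on the array. The mice were male C57BL/6, were 6 weeks old at the start and had 2 weeks on their diet before the 5-week exposure period began. None of the 10 received arsenite in food or water or any injection. In the rest of the series, mice on both diets received 10 or 100 ppb sodium arsenite in water or 10 ppb in food for 5 weeks, and other mice on AIN-76A were injected and taken after 8 hours. RNA came from frozen whole liver and was hybridised to 1-colour Affymetrix mouse arrays, 1 array per sample. Samples within a diet are labelled biological replicates, and a p-value here reflects the spread among samples within a group, pooled over the 8 five-week groups.

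Chow is milled from grain, legume and animal meals and carries many plant compounds and fibres, whereas AIN-76A gets its energy mainly from sucrose, starch, casein and vegetable oil. The liver meets foreign compounds with nuclear receptors such as CAR and PXR, which switch on oxidising cytochromes P450, conjugating enzymes and export pumps. It turns sugar into fat through a short chain of enzymes that begins with fructose and glucose breakdown and ends with fatty acid elongation, makes cholesterol from acetate, and runs a daily clock whose phase follows feeding time.

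Values are log2 expression per probe set, and a difference is the mean of the 5 LRD-5001 arrays minus the mean of the 5 AIN-76A arrays on that scale. Where the 5 values of a diet are listed, they stand for replicates B, C, D, E and F in that order. Each gene is represented by 1 probe set, and levels of different genes cannot be compared on these arrays. A gene rose or fell only where its limma p, adjusted over all 45037 probe sets, was under 0.05.

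Correlations between arrays over all probe sets ran from 0.977 to 0.993 within LRD-5001, from 0.959 to 0.993 within AIN-76A and from 0.952 to 0.990 across diets. A pair of arrays stood apart by their upper quartile, which was 3.935 in LRD-5001 replicate B and 3.750 in AIN-76A replicate C, while the other 8 arrays lay between 4.07 and 4.22. Both had the lowest score of their group on the first component of deviations from the group means, and values given without the arrays that stand apart leave out the lowest-scoring array of each of the 8 five-week groups. The mean of 7 hepatocyte markers differed little between diets, running from 12.26 to 12.36 on LRD-5001 arrays and from 12.24 to 12.36 on AIN-76A arrays. Albumin (Alb) averaged 13.73 ± 0.02 on LRD-5001 and 13.67 ± 0.06 on AIN-76A (SD, n = 5 each).

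A small set of genes passed the test in control mice, and with all 10 arrays more of these were higher on chow than lower. With 5 arrays per diet, a gene that did not pass is not shown to be unchanged. Of the 45037 probe sets, 256 passed the test (0.568%), with 180 higher (0.4%) and 76 lower (0.169%) on LRD-5001. At an unadjusted p under 0.05 the number was 3249 (7.21%). By gene, 115 of 18193 rose (0.632%) and 47 fell (0.258%). These shares are the background for every list count given below for control mice. The median difference over all genes was 0.003. In 135 of the 162 genes that passed, the 5 arrays of one diet all lay above the 5 of the other. Over all 18193 genes this pattern was found in 301 with LRD-5001 higher and in 194 with LRD-5001 lower. Over all probe sets it was found in 499 (1.11%) and 336 (0.746%). The 162 genes were selected by their difference on the same arrays, so frequent separation among them is built in. The genes that rose had a median difference of 1.06 and those that fell of -1.09. Replicate C was the lowest AIN-76A array for 76 of the 115 genes that rose and for 17 of the 47 that fell, and 61 of the risen and 36 of the fallen genes passed again without it. Leaving out that array gave 93 probe sets higher and 99 lower. The higher calls numbered 116 without LRD-5001 replicate E and 112 without LRD-5001 replicate F. The lower calls numbered 46 without AIN-76A replicate E, 46 without AIN-76A replicate F and 45 without LRD-5001 replicate D. All calls together numbered 170 without LRD-5001 replicate D and 165 without LRD-5001 replicate F.

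**Figure D1:**
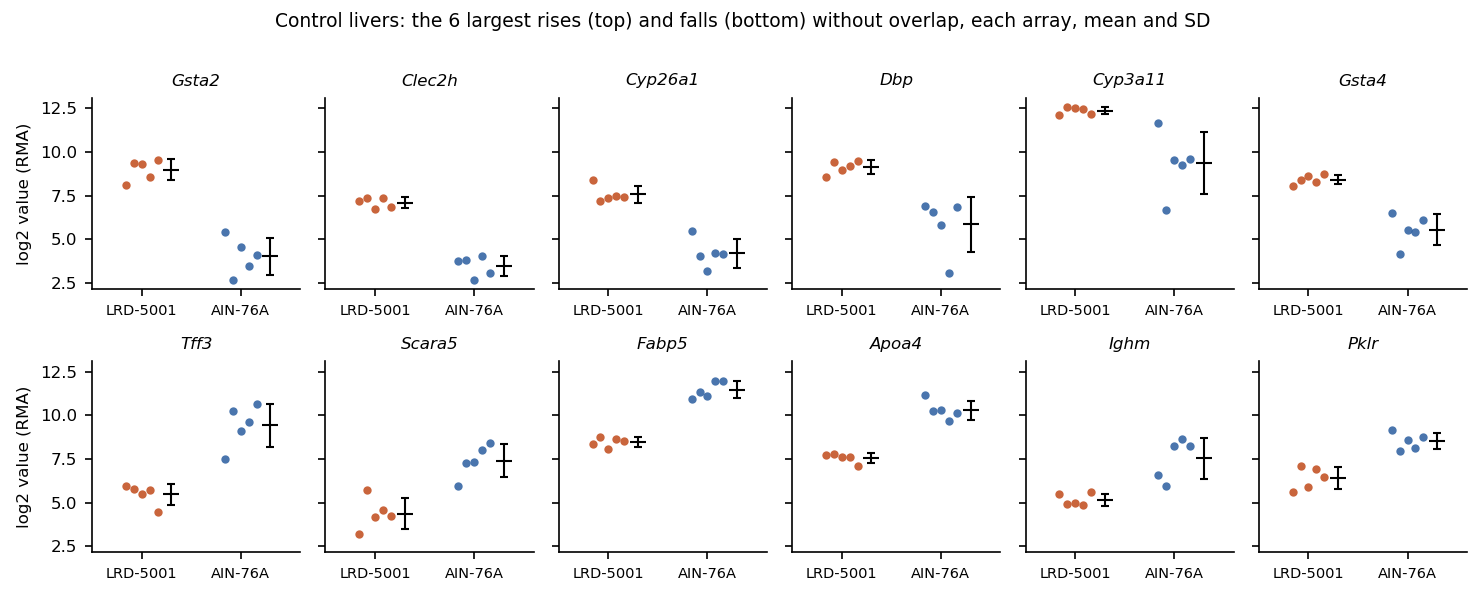
Log2 values of the 6 genes with the largest rise (top row) and the 6 with the largest fall (bottom row) on LRD-5001 among genes whose arrays do not overlap, 1 point per array in the order B to F, with the mean and SD of each diet as a bar. For Gsta2 the LRD-5001 arrays lie between 8.10 and 9.54 and the AIN-76A arrays between 2.65 and 5.42, and for Apoa4 the LRD-5001 arrays lie between 7.10 and 7.79 and the AIN-76A arrays between 9.65 and 11.17.

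Genes that join glutathione to reactive compounds formed the group with the largest single rise. Of 21 glutathione transferase genes, 6 rose and none fell, against 0.632% and 0.258% of all genes, and the median difference of the group was 0.59. Gsta2, an alpha-class transferase, had 8.10, 9.37, 9.31, 8.59 and 9.54 on LRD-5001, against 5.42, 2.65, 4.58, 3.47 and 4.10 on AIN-76A. Its lowest chow array lay well above its highest purified-diet array, and the difference of 4.94 (SE 0.52, adjusted p = 2.87e-07) is a 30.7-fold higher signal. Gsta4, which handles the lipid peroxidation product hydroxynonenal, had 8.06, 8.40, 8.61, 8.27 and 8.72 on LRD-5001, against 6.54, 4.16, 5.55, 5.42 and 6.12 on AIN-76A. Replicate C was again the lowest AIN-76A array, and the difference was 2.85 (SE 0.47, adjusted p = 0.000585). The theta-class gene Gstt2 had 8.32, 8.28, 8.60, 8.39 and 9.05 on LRD-5001, against 6.98, 5.03, 6.05, 5.98 and 5.52 on AIN-76A, with a difference of 2.62 (SE 0.32, adjusted p = 4.02e-06). Its neighbour in the theta class, Gstt3, rose by 1.78 (SE 0.27, adjusted p = 0.00017).

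The mu-class gene Gstm4 had 7.29, 6.97, 6.98, 7.49 and 7.07 on LRD-5001, against 6.46, 5.12, 6.40, 6.10 and 6.10 on AIN-76A, a rise of 1.12 (SE 0.24, adjusted p = 0.0154). That call ended without AIN-76A replicate C (adjusted p = 0.0832) or LRD-5001 replicate E (adjusted p = 0.0622). Gstz1, which also acts in tyrosine breakdown, rose by 0.41 (SE 0.10, adjusted p = 0.0321), and leaving out any 1 of 7 arrays ended its call, with adjusted p up to 0.11. In Gstm1, Gstm3 and Gsto1 every chow array lay above every purified-diet array without the test being passed, with differences of 0.91 (adjusted p = 0.112), 1.09 (adjusted p = 0.0973) and 0.59 (adjusted p = 0.101). The pi-class gene Gstp1 and the microsomal gene Mgst1 differed by 0.07 and 0.05. In all, 12 of the 21 transferases had non-overlapping arrays with LRD-5001 higher, against 301 of all 18193 genes. Transferases of 1 class are close in sequence, so their probe sets may share signal.

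A separate list of genes tied to Nrf2, the transcription factor that answers oxidants, held 1 call. Genes tied to Nrf2 that were listed only elsewhere, such as Gsta2 and Abcc3, which both rose, are not counted in it. The count describes the listed genes only, not all genes under Nrf2. Of the 19 genes in the list, 2 of them regulators, 1 rose, against 0.632% of all genes. Their median difference was 0.13, or 0.08 without AIN-76A replicate C and 0.07 without LRD-5001 replicate E. The gene that rose was Nqo1, a quinone reductase, which had 3.10, 3.58, 3.46, 3.41 and 3.39 on LRD-5001, against 2.89, 2.47, 2.67, 2.37 and 2.38 on AIN-76A. These values are low for the array, all chow values were the higher ones, and the difference was 0.83 (SE 0.19, adjusted p = 0.0228), a call that ended when any 1 of 7 arrays was left out (adjusted p up to 0.0842). Gclc, which starts glutathione synthesis, differed by 0.26, the thioredoxin reductase Txnrd1 by -0.13 and the sulfiredoxin Srxn1 by 0.35. Me1, an Nrf2 target that also supplies NADPH for fat synthesis, was lower on every chow array, with a difference of -1.30 and an adjusted p of 0.164.

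Several cytochromes P450 of family 2 were higher on chow. Of 24 listed members 5 rose and none fell, against 0.632% and 0.258% of all genes, with a median difference of 0.31. All 5 belong to the 11 listed genes of subfamily 2c, which all had positive differences, with a median of 1.10. As with the transferases, probe sets of close family members may share signal. The same holds for the UDP-glucuronosyltransferases and carboxylesterases below. Cyp2c55, an arachidonic acid epoxygenase and hydroxylase, had 4.76, 6.34, 5.57, 5.40 and 5.51 on LRD-5001, against 4.005, 2.96, 2.98, 3.20 and 3.53 on AIN-76A, a rise of 2.18 (SE 0.33, adjusted p = 0.000251). Cyp2c37 had 9.001, 9.81, 9.75, 9.40 and 9.37 on LRD-5001, against 8.35, 6.50, 7.52, 6.88 and 7.27 on AIN-76A, a rise of 2.16 (SE 0.40, adjusted p = 0.00328). In both genes the 2 diets did not overlap. Cyp2c54 rose by 2.01 (SE 0.40, adjusted p = 0.00656).

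Cyp2c29, a classic target of CAR in mouse liver, had 11.44, 11.96, 11.96, 11.60 and 11.12 on LRD-5001, against 11.13, 10.01, 10.22, 10.11 and 9.71 on AIN-76A. The lowest chow array and the highest purified-diet array crossed by 0.01, and the rise was 1.38 (SE 0.28, adjusted p = 0.00918). Cyp2c50 rose by 1.53 (SE 0.34, adjusted p = 0.0175), and its call ended without any 1 of 5 arrays (adjusted p up to 0.0765). Cyp2b10, the gene most used to report CAR activity in mice, had 3.25, 3.25, 3.24, 3.02 and 3.22 on LRD-5001, against 2.55, 2.98, 2.74, 2.52 and 2.56 on AIN-76A. All its chow values were higher, at levels low for the array, and the difference of 0.53 did not pass (adjusted p = 0.0821). Cyp2e1, which oxidises ethanol, differed by 0.26 and Cyp2d10 by 0.11. Cyp2g1, which is outside the list and was chosen after its values were seen, had 3.66, 4.24, 3.82, 4.08 and 5.23 on LRD-5001, against 2.89, 2.79, 2.86, 2.53 and 2.53 on AIN-76A. Its diets did not overlap, and the rise of 1.49 (SE 0.30, adjusted p = 0.00698) held whichever array was left out.

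The gene for CAR itself, Nr1i3, was higher on chow. It had 7.20, 7.16, 7.17, 7.22 and 7.49 on LRD-5001, against 6.17, 4.30, 6.51, 5.78 and 5.17 on AIN-76A. The chow arrays lay within a narrow band and the purified-diet arrays were scattered below it, with a rise of 1.66 (SE 0.32, adjusted p = 0.00487). The Nr1i3 call held whichever of the 10 arrays was left out, but ended when the fit held only the control arrays. The gene for PXR, Nr1i2, differed by 0.54 and did not pass (adjusted p = 0.662). Cyp3a11, the main mouse P450 of subfamily 3a and a PXR target, had 12.12, 12.60, 12.53, 12.46 and 12.16 on LRD-5001, against 11.66, 6.68, 9.52, 9.27 and 9.61 on AIN-76A. Its difference of 3.02 (SE 0.63, adjusted p = 0.0121) leaned on AIN-76A replicate C, without which the adjusted p was 0.0647. Cyp3a25 rose by 1.54 (SE 0.38, adjusted p = 0.0464), a call that ended without any 1 of 9 arrays (adjusted p up to 0.18). In the list of CAR, PXR, their partners and Cyp3a genes, 3 of 9 rose, against 0.632% of all genes, and none fell. The list median was 0.50, and 1 rose without AIN-76A replicate C. That median was 0.30 to 0.31 without AIN-76A replicate B or LRD-5001 replicate D or E. Of 7 genes of the aryl hydrocarbon receptor system none passed. Among them Cyp1a2, the main constitutive liver member, had 11.44, 11.38, 11.30, 11.61 and 11.52 on LRD-5001, against 10.12, 9.88, 10.65, 10.38 and 9.99 on AIN-76A. Its 2 diets did not overlap, but against the spread shared by all 8 groups the difference of 1.24 (SE 0.47) did not pass (adjusted p = 0.41). Cyp1a1 differed by -0.04.

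Enzymes that attach glucuronic acid or sulfate were higher on chow in 4 of 20 genes and lower in none, against 0.632% and 0.258% of all genes. The median difference of the 20 was 0.57. Ugdh, which makes the glucuronic acid donor, had 9.17, 9.50, 9.44, 9.44 and 9.38 on LRD-5001, against 7.89, 8.37, 8.18, 8.62 and 8.15 on AIN-76A, a rise of 1.15 (SE 0.20, adjusted p = 0.00118) with no overlap. All 10 UDP-glucuronosyltransferases had positive differences, with a median of 0.62, and 2 rose. Ugt2b5 rose by 0.63 (SE 0.14, adjusted p = 0.0184) but not without AIN-76A replicate C (adjusted p = 0.089), AIN-76A replicate E (0.0529) or LRD-5001 replicate D (0.0722). Ugt2b35 rose by 0.96 (SE 0.21, adjusted p = 0.0179), and 4 arrays, AIN-76A replicate C and LRD-5001 replicates C, D and E, each ended that call when left out (adjusted p up to 0.0913). The sulfotransferase Sult1b1 had 6.75, 7.54, 7.53, 6.95 and 7.43 on LRD-5001, against 6.51, 3.77, 5.57, 5.11 and 5.64 on AIN-76A. It rose by 1.92 (SE 0.40, adjusted p = 0.0118), with an adjusted p of 0.0639 without AIN-76A replicate C. Of the 20 genes 1 rose when that array was left out and 2 rose without LRD-5001 replicate D. Without AIN-76A replicate C the median was 0.30 for the 20 genes and 0.37 for the 10 UDP-glucuronosyltransferases, none of which then passed.

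Carboxylesterases, which split esters and amides of drugs and lipids, had positive differences in all 10 measured members and a median of 0.98, and 2 of them rose. Ces2a had 10.51, 10.40, 10.41, 10.71 and 10.48 on LRD-5001, against 9.59, 7.62, 9.05, 8.60 and 8.84 on AIN-76A, a rise of 1.76 (SE 0.29, adjusted p = 0.000663). Ces1g, which hydrolyses cholesteryl esters and triglycerides, had 8.43, 8.95, 8.53, 8.61 and 8.82 on LRD-5001, against 7.59, 4.59, 6.77, 6.31 and 6.33 on AIN-76A, a rise of 2.35 (SE 0.50, adjusted p = 0.0149) that did not pass without AIN-76A replicate C (adjusted p = 0.0807). Both genes were separated by diet on every array. Without that array 1 of the 10 rose. Ces1e differed by 2.04 and missed the threshold (adjusted p = 0.0813).

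Other oxidising enzymes rose in 6 of 18 genes, against 0.632% of all genes, with a median of 0.41 and no falls. Ephx1, the microsomal epoxide hydrolase, had 10.08, 10.14, 10.08, 10.36 and 10.13 on LRD-5001, against 8.92, 7.70, 9.21, 8.42 and 8.18 on AIN-76A, a rise of 1.67 (SE 0.24, adjusted p = 0.000126). The aldehyde oxidase Aox1 had 8.29, 8.31, 8.42, 8.52 and 8.05 on LRD-5001, against 6.999, 4.93, 7.26, 6.61 and 6.78 on AIN-76A, a rise of 1.80 (SE 0.32, adjusted p = 0.002). These 2 genes kept their calls whichever array was left out, and they were the 2 of the list that passed without AIN-76A replicate C. The Aox1 call ended when the fit held only the control arrays. Without LRD-5001 replicate D, 3 of the list passed. The fatty aldehyde dehydrogenase Aldh3a2 rose by 1.80 (SE 0.38, adjusted p = 0.0138), with an adjusted p of 0.0762 without AIN-76A replicate C. Calls ended without any 1 of 5 arrays for the retinal dehydrogenase Aldh1a1 (0.87, SE 0.19, adjusted p = 0.02, up to 0.0889) and for Aldh1a7 (0.68, SE 0.15, adjusted p = 0.0175, up to 0.0759), and without any 1 of 4 for Fmo5 (0.72, SE 0.17, adjusted p = 0.0312, up to 0.156).

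Of the listed genes, 1 of retinoid metabolism and 3 transporters rose. Cyp26a1, which degrades retinoic acid and is induced by it, had 8.42, 7.20, 7.37, 7.46 and 7.42 on LRD-5001, against 5.47, 4.02, 3.18, 4.20 and 4.14 on AIN-76A. The diets were far apart, with a rise of 3.37 (SE 0.52, adjusted p = 0.000289), and it was the only 1 of 13 retinoid genes to pass. Rarb, another gene induced by retinoic acid, differed by 0.42, Lrat, which stores retinol as esters, by 0.37, and Bco1, which splits beta-carotene, by -0.84, and the list median was 0.18. That median was 0.11 without AIN-76A replicate C and 0.33 without AIN-76A replicate E, and 2 retinoid genes rose without AIN-76A replicate B. Among 21 transporters the median was 0.30, or 0.13 without AIN-76A replicate C. Abcc3, a pump that exports conjugates towards the blood, had 7.22, 7.20, 7.16, 7.90 and 7.37 on LRD-5001, against 5.52, 3.56, 4.73, 4.69 and 4.14 on AIN-76A, a rise of 2.84 (SE 0.32, adjusted p = 1.47e-06). Abcc2, which exports conjugates into bile, rose by 0.62 (SE 0.12, adjusted p = 0.00671) with no overlap of the diets. The uptake carrier Slco1a4 had 5.57, 7.78, 7.13, 6.46 and 7.88 on LRD-5001, against 5.81, 4.98, 3.56, 3.29 and 4.28 on AIN-76A, a rise of 2.58 (SE 0.42, adjusted p = 0.000511), although LRD-5001 replicate B lay below AIN-76A replicate B.

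**Figure D2:**
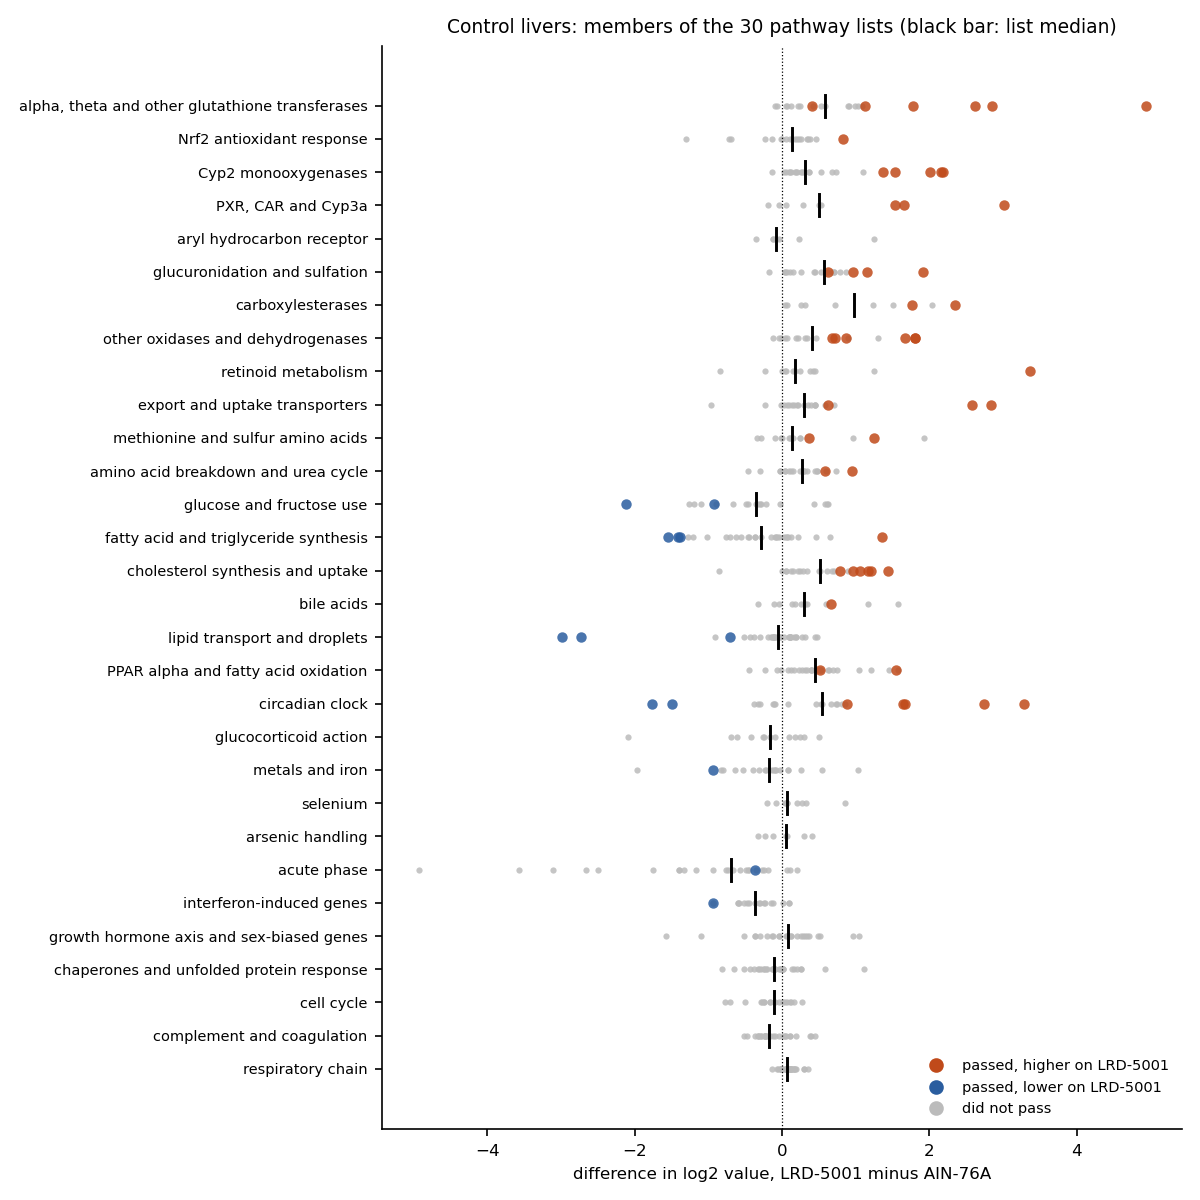
Difference in log2 value, LRD-5001 minus AIN-76A, of every measured member of the 30 pathway lists, 1 row per list and 1 point per gene, coloured where the gene passed the test, with a black bar at the list median. The medians run from 0.98 for carboxylesterases to -0.70 for the acute phase, and the coloured points lie to the right for the detoxication and cholesterol lists and to the left for glucose use and lipid transport.

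Few of the listed amino acid genes passed the test. In the methionine and sulfur list 2 of 14 rose, with a median of 0.13 that was 0.08 without LRD-5001 replicate E. Cth, the enzyme that makes cysteine from cystathionine, had 11.10, 11.16, 11.56, 10.96 and 11.33 on LRD-5001, against 10.56, 9.78, 9.86, 9.91 and 9.75 on AIN-76A, a rise of 1.25 (SE 0.20, adjusted p = 0.000327). Ahcy, which splits the by-product of methylation, rose by 0.37 (SE 0.08, adjusted p = 0.0157), but not without AIN-76A replicate E (adjusted p = 0.0774), AIN-76A replicate F (0.07) or LRD-5001 replicate E (0.0797). The taurine enzyme Csad differed by 1.92 and did not pass (adjusted p = 0.14). In the list of amino acid breakdown and the urea cycle 2 of 20 rose, with a median of 0.27, and none of the 6 urea cycle genes passed. Gpt, alanine aminotransferase, had 9.45, 9.06, 9.20, 9.40 and 9.23 on LRD-5001, against 8.59, 8.40, 8.35, 8.11 and 8.17 on AIN-76A, a rise of 0.95 (SE 0.15, adjusted p = 0.000357) without overlap. Tdo2, which opens tryptophan breakdown, rose by 0.58 (SE 0.12, adjusted p = 0.0121), with an adjusted p of 0.0582 without AIN-76A replicate E.

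Genes of sugar use and glucose synthesis leaned lower on chow. Of 19 genes, 6 of them of glucose synthesis, 2 fell and none rose, against 0.258% and 0.632% of all genes. The median difference was -0.35. That of the 7 genes of regulation and sugar entry was -0.02, with 3 positive. Khk, the kinase that commits fructose to breakdown, had 9.50, 9.45, 9.40, 9.53 and 9.61 on LRD-5001, against 10.61, 10.24, 10.35, 10.20 and 10.72 on AIN-76A. Its chow arrays lay within a band narrower than that of the purified diet and wholly below it, with a fall of -0.93 (SE 0.18, adjusted p = 0.00539). Pklr, liver pyruvate kinase, had 5.58, 7.10, 5.91, 6.92 and 6.49 on LRD-5001, against 9.13, 7.98, 8.58, 8.13 and 8.76 on AIN-76A, a fall of -2.12 (SE 0.46, adjusted p = 0.0169). The Pklr call ended without AIN-76A replicate F (adjusted p = 0.0501), LRD-5001 replicate B (0.0705) or LRD-5001 replicate D (0.0669). Fbp1, an enzyme of glucose synthesis, had 12.19, 12.27, 12.26, 12.29 and 12.34 on LRD-5001, against 12.66, 12.54, 12.54, 12.50 and 12.56 on AIN-76A. Its diets were separate and the difference of -0.29 narrowly missed the threshold (adjusted p = 0.0569). All 6 genes of glucose synthesis had negative differences, with a median of -0.34 and no call, among them -1.26 for G6pc (adjusted p = 0.279). Without AIN-76A replicate C, 4 of the 19 fell, and 1 fell without AIN-76A replicate F or LRD-5001 replicate B or D.

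The first steps of fatty acid synthesis followed the same side. All 8 synthesis genes had negative differences, with a median of -0.82, and 2 fell. Acaca, the carboxylase that makes malonyl-CoA for synthesis, had 5.12, 6.30, 5.59, 5.95 and 5.83 on LRD-5001, against 7.62, 6.62, 6.84, 6.92 and 7.74 on AIN-76A, a fall of -1.39 (SE 0.33, adjusted p = 0.0363). Acacb, whose malonyl-CoA restrains fatty acid oxidation, had 5.67, 6.12, 5.21, 6.28 and 6.01 on LRD-5001, against 7.51, 6.96, 7.15, 7.85 and 7.56 on AIN-76A, a fall of -1.55 (SE 0.35, adjusted p = 0.0231). No array of one diet reached the other in these genes, yet the Acaca call ended without any 1 of 7 arrays (adjusted p up to 0.145) and that of Acacb without AIN-76A replicate E or F or LRD-5001 replicate B or D (adjusted p up to 0.106). A second probe set of Acacb had the opposite sign and did not pass. Fasn, the synthase itself, was lower on every chow array by -1.21 (SE 0.39) and did not pass (adjusted p = 0.247).

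Among 10 elongation and desaturation genes 1 fell, with a median of -0.47. Without AIN-76A replicate C 3 of them fell and the median was -0.73. Elovl5, which lengthens polyunsaturated fatty acids, had 9.46, 10.64, 9.73, 10.00 and 10.37 on LRD-5001, against 12.22, 10.64, 11.49, 11.31 and 11.62 on AIN-76A, and replicate C of each diet met at 10.64. Its fall was -1.41 (SE 0.28, adjusted p = 0.00767). The desaturase Scd1 had 11.71, 12.53, 12.28, 12.27 and 12.54 on LRD-5001, against 13.22, 12.89, 12.89, 13.03 and 13.10 on AIN-76A, separate arrays with a difference of -0.76 that did not pass (adjusted p = 0.219). None of the 8 genes of glyceride assembly passed, and their median was 0.01. Of the regulators, Srebf1, the lipogenic transcription factor, differed by 0.46 (adjusted p = 0.933). The adipogenic receptor gene Pparg went the other way from the enzymes, with 3.87, 5.08, 4.90, 5.07 and 4.50 on LRD-5001, against 3.46, 3.45, 3.06, 3.49 and 3.19 on AIN-76A, a rise of 1.35 (SE 0.27, adjusted p = 0.00659). Over all 29 genes of fatty acid and triglyceride synthesis 1 rose and 3 fell, with a median of -0.29. Without AIN-76A replicate C 5 fell and the median was -0.48. The falls numbered 1 without AIN-76A replicate E or F or LRD-5001 replicate B or D, and without AIN-76A replicate F the median was -0.11.

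**Figure D3:**
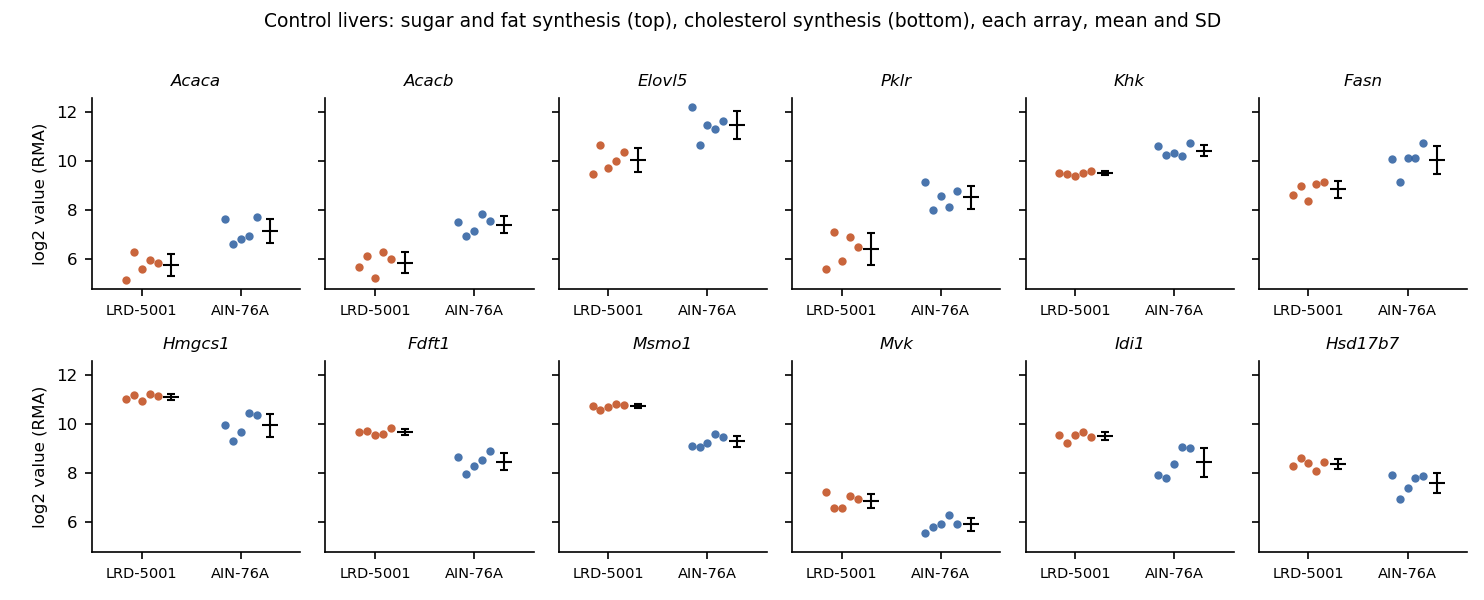
Log2 values of 6 genes of sugar use and fat synthesis (top row) and 6 genes of cholesterol synthesis (bottom row), 1 point per array in the order B to F, with mean and SD per diet. LRD-5001 points lie lower in the top row, as for Pklr with 5.58 to 7.10 on LRD-5001 and 7.98 to 9.13 on AIN-76A, and higher in the bottom row, as for Hmgcs1 with 10.97 to 11.24 on LRD-5001 and 9.31 to 10.45 on AIN-76A.

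Cholesterol genes moved opposite to those of fatty acid synthesis. Of 22 genes 6 rose and none fell, against 0.632% and 0.258% of all genes, with a median of 0.51. The 6 were 3 of the 6 mevalonate steps and 3 of the 11 sterol steps. Hmgcs1, which makes the precursor of mevalonate, had 11.05, 11.19, 10.97, 11.24 and 11.16 on LRD-5001, against 9.96, 9.31, 9.69, 10.45 and 10.37 on AIN-76A, a rise of 1.17 (SE 0.17, adjusted p = 0.000167). Fdft1, squalene synthase, had 9.70, 9.74, 9.55, 9.59 and 9.87 on LRD-5001, against 8.67, 7.98, 8.29, 8.54 and 8.92 on AIN-76A, a rise of 1.21 (SE 0.22, adjusted p = 0.00283). In both the diets stood fully apart. The sterol methyl oxidase Msmo1 had 10.76, 10.60, 10.71, 10.84 and 10.79 on LRD-5001, against 9.11, 9.09, 9.22, 9.60 and 9.50 on AIN-76A, a rise of 1.43 (SE 0.22, adjusted p = 0.000326), and its other probe set had the opposite sign without passing.

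Weaker calls in the same pathway were those of the mevalonate kinase Mvk, the isomerase Idi1 and the sterol reductase Hsd17b7. Mvk rose by 0.97 (SE 0.21, adjusted p = 0.017), with adjusted p of 0.0685, 0.0618 and 0.0504 without LRD-5001 replicates B, E and F. Idi1 rose by 1.06 (SE 0.25, adjusted p = 0.0323) and Hsd17b7 by 0.78 (SE 0.18, adjusted p = 0.0325), and leaving out any 1 of 7 or 6 arrays ended these calls (adjusted p up to 0.144 and 0.163). Cyp51 and Sqle, 2 further sterol enzymes, differed by 0.71 (adjusted p = 0.401) and 0.52. Srebf2, the factor that drives the pathway, differed by 0.15, and Insig2, which holds that factor back, by -0.86 (adjusted p = 0.079). The list had 4 rises and 1 fall without AIN-76A replicate C, and 3 rises without LRD-5001 replicate B or F.

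The promoter of Hmgcs1 is shown because that gene gave the smallest p of the pathway's mevalonate steps and its window holds a known type of sterol element. The letters TCACNCCAC, searched on both strands over the 250 bases before each start site in RefSeq's table for GRCm38.p6, were found in 346 of 32851 promoters (1.05%). Of the 22 cholesterol genes 18 had a promoter in the table, and 1 of these held the letters (5.56%). Of 132 genes that passed the test and had a promoter, 3 held them (2.27%): Hmgcs1, Ehhadh and Aldoc. A match is a description of letters only. The window lies at chr13:119690101-119690350 on the plus strand, with the match in capitals starting 137 bases before the start site.
Hmgcs1: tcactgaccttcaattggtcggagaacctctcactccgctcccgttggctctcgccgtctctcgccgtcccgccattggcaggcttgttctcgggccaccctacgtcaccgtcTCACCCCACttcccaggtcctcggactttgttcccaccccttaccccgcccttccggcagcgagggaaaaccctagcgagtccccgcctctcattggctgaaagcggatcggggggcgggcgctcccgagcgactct

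Of 13 bile acid genes 1 rose, and the median was 0.29, or 0.19 without AIN-76A replicate C. Acox2, which shortens the side chain of bile acid precursors in peroxisomes, had 9.66, 9.58, 9.56, 9.67 and 9.56 on LRD-5001, against 9.08, 8.75, 9.24, 8.71 and 8.93 on AIN-76A, a rise of 0.67 (SE 0.11, adjusted p = 0.000393). Cyp7a1, which sets the rate of bile acid synthesis, had 7.33, 8.25, 8.15, 7.98 and 8.90 on LRD-5001, against 5.86, 5.17, 7.93, 5.89 and 7.89 on AIN-76A. The Cyp7a1 diets overlapped, since AIN-76A replicates D and F lay among the chow arrays, and the difference of 1.57 (SE 0.60) did not pass (adjusted p = 0.436).

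Among 33 genes of lipid transport and storage none rose and 3 fell, against 0.632% and 0.258% of all genes, with a median of -0.06. Apoa4, an apolipoprotein of chylomicrons and HDL, had 7.72, 7.79, 7.61, 7.58 and 7.10 on LRD-5001, against 11.17, 10.22, 10.28, 9.65 and 10.13 on AIN-76A, a 6.63-fold lower signal (difference -2.73, SE 0.27, adjusted p = 4.81e-08). The fatty acid carrier Fabp5 had 8.36, 8.77, 8.08, 8.63 and 8.51 on LRD-5001, against 10.92, 11.34, 11.08, 11.96 and 11.97 on AIN-76A, a 7.90-fold lower signal (difference -2.98, SE 0.39, adjusted p = 2.72e-05). Gaps wider than the spread of either diet separated the arrays of both genes. Apoc2, the activator of lipoprotein lipase, had 9.95, 9.45, 9.40, 9.65 and 9.58 on LRD-5001, against 10.41, 10.40, 10.31, 10.27 and 10.18 on AIN-76A, a fall of -0.71 (SE 0.13, adjusted p = 0.00215). The droplet coat gene Plin2 differed by -0.52 (adjusted p = 0.265). Other lipid storage genes, outside this list and chosen after their values were seen, also passed. Fitm1 rose by 2.01 and Lipe by 0.93, and Pnpla5 fell, with a difference of -1.49. Their calls ended without any 1 of 3, 2 and 6 arrays.

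Fatty acid oxidation leaned upward, with 24 of 28 genes positive, a median of 0.45, 2 rises and no falls. Without AIN-76A replicate B 5 genes rose, and without any 1 of 8 other arrays 1 rose. All 11 peroxisomal members were positive, with a median of 0.75. Ehhadh, the bifunctional enzyme of peroxisomal oxidation, had 8.75, 9.10, 8.76, 9.12 and 9.10 on LRD-5001, against 8.39, 5.59, 8.20, 7.61 and 7.29 on AIN-76A. It rose by 1.55 (SE 0.33, adjusted p = 0.0128), the AIN-76A arrays lying below the chow arrays and replicate C lowest. Acadm, the medium-chain acyl-CoA dehydrogenase of mitochondria, rose by 0.52 (SE 0.12, adjusted p = 0.0374), a call that ended without any 1 of 8 arrays (adjusted p up to 0.165). Cpt1a, the gate of mitochondrial uptake, differed by -0.06 and the receptor gene Ppara by 0.53 (adjusted p = 0.715).

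Clock genes changed in both directions. Of 22 genes 5 rose and 2 fell, against 0.632% and 0.258% of all genes, with a median of 0.54. Without AIN-76A replicate E or LRD-5001 replicate F 3 rose. Arntl, which encodes the activator BMAL1, had 3.21, 2.93, 3.21, 3.33 and 2.88 on LRD-5001, against 4.94, 4.45, 4.97, 5.43 and 4.61 on AIN-76A, a fall of -1.77 (SE 0.24, adjusted p = 3.14e-05), and its other probe set had the opposite sign without passing. Nfil3, the repressor of D-box genes, had 4.73, 4.34, 4.62, 4.69 and 4.08 on LRD-5001, against 5.87, 5.99, 6.03, 6.36 and 5.68 on AIN-76A, a fall of -1.49 (SE 0.23, adjusted p = 0.000339). Both genes were lower on all chow arrays.

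The D-box activators and other output genes lay on the other side. Tef had 7.59, 7.79, 7.78, 7.76 and 8.12 on LRD-5001, against 6.50, 6.25, 6.10, 5.48 and 6.49 on AIN-76A, a rise of 1.64 (SE 0.19, adjusted p = 3.04e-06). Dbp had 8.56, 9.44, 8.96, 9.22 and 9.51 on LRD-5001, against 6.92, 6.59, 5.83, 3.10 and 6.83 on AIN-76A. Its AIN-76A replicate E was far below the other arrays, and the rise of 3.28 (SE 0.71, adjusted p = 0.0157) did not pass without that array (adjusted p = 0.0963) or without LRD-5001 replicate F (0.0512). Upp2, a uridine phosphorylase with a strong daily rhythm in mouse liver, had 9.12, 9.52, 9.52, 9.61 and 9.83 on LRD-5001, against 7.66, 5.80, 6.87, 6.57 and 6.98 on AIN-76A, a rise of 2.75 (SE 0.46, adjusted p = 0.000874). Ciart, a repressor of the clock, had 3.88, 3.28, 3.52, 3.49 and 4.02 on LRD-5001, against 3.10, 2.67, 2.77, 2.59 and 2.62 on AIN-76A, a rise of 0.89 (SE 0.18, adjusted p = 0.00767) at levels low for the array, which did not pass without the 8 arrays that stand apart (adjusted p = 0.0761). The deubiquitinase Usp2 rose by 1.67 (SE 0.38, adjusted p = 0.0231), and any 1 of 7 arrays ended the call when left out (adjusted p up to 0.09).

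Core period and reverb genes did not pass. Per3 differed by 0.82 (adjusted p = 0.0553), with LRD-5001 replicate B at 2.54 among AIN-76A values of 2.45 to 2.72 and the other chow arrays at 3.38 and above. Per1, Per2 and Nr1d1 differed by 0.74, 0.08 and 0.66, Cry1 by -0.38 and Cry2 by 0.53. Clock and Npas2, the partners of BMAL1, differed by -0.33 and -0.29. The labels used here give no time of day for the sampling, and a part of sampling time or feeding time in these differences was not tested.

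**Figure D4:**
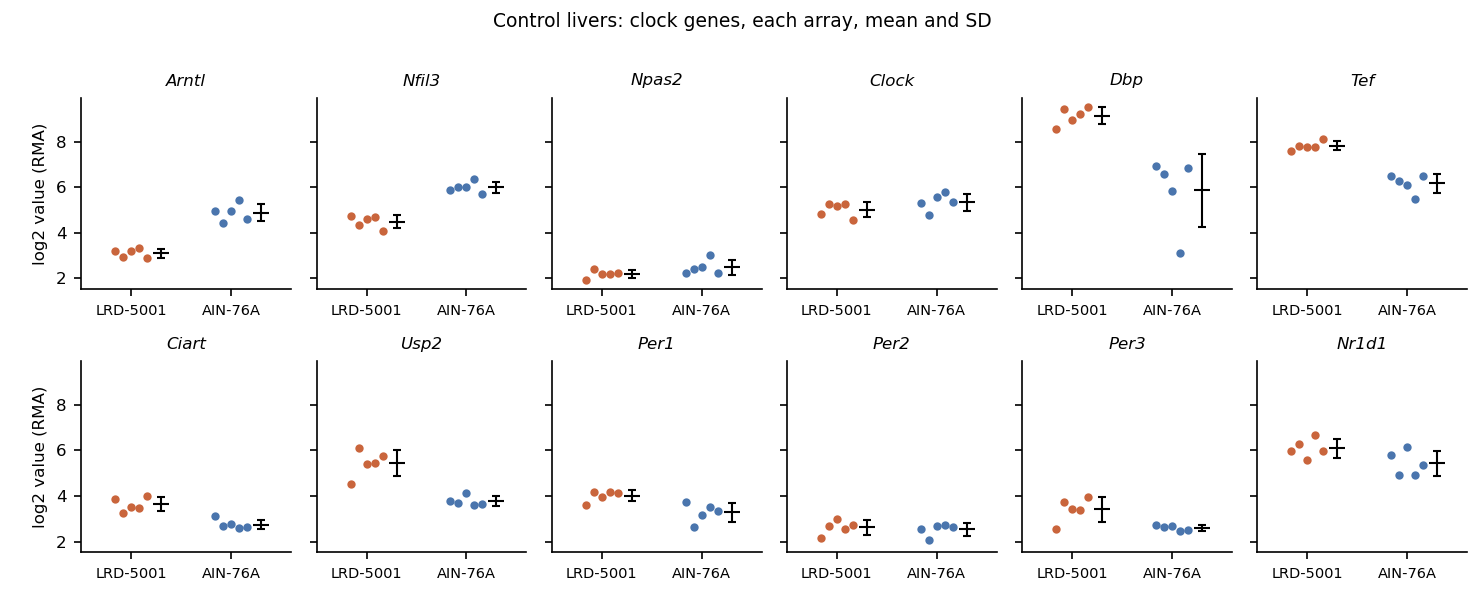
Log2 values of 12 clock genes, 1 point per array in the order B to F, with mean and SD per diet. Arntl and Nfil3 are lower on LRD-5001, with 2.88 to 3.33 on LRD-5001 and 4.45 to 5.43 on AIN-76A for Arntl, while Dbp, Tef, Ciart and Usp2 are higher on LRD-5001 and Per2, Clock and Npas2 overlap.

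The promoters of Ciart and Tef are shown because both genes rose and both windows hold the E-box CACGTG, the site bound by BMAL1 and CLOCK. These letters read the same on both strands and occurred in 1978 of 32851 promoters (6.02%) of the same length in RefSeq's table. Of 22 clock genes 19 had a promoter there and 5 of these held the E-box (26.3%): Per1, Cry1, Bhlhe41, Ciart and Tef. Among genes that passed the test, 20 of 132 with a promoter held it (15.2%), and by gene the share over the whole table was 1854 of 27025 (6.86%). The Ciart window, chr3:95882229-95882478 of GRCm38.p6 on the minus strand, holds 3 matches that start 116, 58 and 44 bases before the start site. The Tef window, at the second of its start sites, is chr15:81811164-81811413 on the plus strand, with a match starting 138 bases before it. Capitals mark the E-boxes, which are letters found and not sites shown to be bound.
Ciart: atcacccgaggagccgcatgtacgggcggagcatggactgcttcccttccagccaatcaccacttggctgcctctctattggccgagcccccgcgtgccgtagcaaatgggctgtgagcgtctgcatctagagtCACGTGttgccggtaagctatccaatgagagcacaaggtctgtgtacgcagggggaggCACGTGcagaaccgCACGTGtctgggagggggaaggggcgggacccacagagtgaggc
Tef: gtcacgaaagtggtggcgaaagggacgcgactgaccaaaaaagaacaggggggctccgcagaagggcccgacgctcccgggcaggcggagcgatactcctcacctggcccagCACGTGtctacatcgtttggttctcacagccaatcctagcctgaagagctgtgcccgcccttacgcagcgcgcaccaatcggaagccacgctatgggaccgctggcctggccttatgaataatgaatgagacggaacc

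Positive acute-phase proteins, which the liver secretes in inflammation, differed widely among the AIN-76A arrays. All 19 had negative differences, with a median of -0.94, and 1 fell. In 18 of the 19 the highest 3 of the 10 arrays were AIN-76A replicates C, E and F, a pattern seen in 344 of 18193 genes (1.89%). Lcn2, lipocalin 2, had 2.60, 2.97, 2.44, 3.43 and 3.32 on LRD-5001, against 3.76, 11.33, 4.11, 11.71 and 8.53 on AIN-76A. AIN-76A replicates B and D were close to the chow arrays, and the difference of -4.94 (SE 1.46) did not pass (adjusted p = 0.161). Serum amyloid Saa2 had 7.58, 6.29, 6.54, 6.24 and 6.85 on LRD-5001, against 6.63, 13.26, 7.02, 13.03 and 11.39 on AIN-76A, and the same 3 arrays stood out (difference -3.57, adjusted p = 0.263). Orosomucoid Orm2 had 4.55, 4.50, 4.83, 4.82 and 5.48 on LRD-5001, against 4.75, 11.37, 4.51, 10.55 and 8.53 on AIN-76A (difference -3.11, adjusted p = 0.467).

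Fgg, the fibrinogen gamma chain, was the gene of this list that passed. It had 12.93, 12.82, 12.88, 12.91 and 12.85 on LRD-5001, against 13.12, 13.46, 13.10, 13.39 and 13.21 on AIN-76A, a fall of -0.37 (SE 0.08, adjusted p = 0.0187). Its chow arrays were all lower, and the call ended without AIN-76A replicate C or E or LRD-5001 replicate C or F (adjusted p up to 0.0856). Of the 19 proteins 3 fell without AIN-76A replicate B and 2 without LRD-5001 replicate E. The metallothionein Mt2 followed the same arrays, with 4.16, 5.99, 4.62, 3.94 and 5.97 on LRD-5001, against 3.72, 11.77, 3.48, 7.01 and 8.56 on AIN-76A. Of the 47 genes that fell on chow, 16 were highest in AIN-76A replicates C, E and F (34.0%), against 1.89% of all genes. They included Tff3, Fabp5, St6gal1, Mpeg1, Cd9 and Fn1, but not Apoa4, Arntl or Nfil3. Without AIN-76A replicate C, 36 of the 47 passed again. Among the rises, the mirror pattern, with C, E and F the 3 lowest AIN-76A arrays, was seen in Gsta2, Gstt2, Abcc3, Nr1i3, Cyp2c29 and Cyp2c37. Ces2a, Ces1g, Aox1, Ephx1, Ehhadh and Hsd17b6 had it too. It was absent from Clec2h, Cyp26a1, Cyp2c55, Gsta4, Cyp3a11, Dbp, Tef, Upp2 and Hmgcs1, where replicate D was among the 3 lowest. How many rises had this pattern was not counted. The part of the state of these 3 samples in the falls or the rises was not tested.

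Resident macrophage markers lay on the same side. All 13 Kupffer cell markers had negative differences, with a median of -0.58, and none passed. Without AIN-76A replicate B 3 of them fell. Their mean level was 6.18 to 6.34 on LRD-5001 arrays and 6.32 to 7.37 on AIN-76A arrays, and in 10 of the 13 the highest arrays were AIN-76A replicates C, E and F. Clec4f had 8.17, 7.47, 7.64, 7.85 and 7.77 on LRD-5001, against 7.86, 8.62, 8.11, 8.65 and 8.65 on AIN-76A (difference -0.60, adjusted p = 0.178), and the diets overlapped. Cd5l differed by -0.62, C1qa by -0.73 and Csf1r by -0.58. In whole liver, fewer cells of a type and less RNA per cell cannot be told apart. Mpeg1, a macrophage gene in no list and 1 of the 15 largest separate falls, had 7.01, 7.56, 7.54, 7.08 and 7.55 on LRD-5001, against 8.59, 8.81, 8.11, 9.09 and 8.76 on AIN-76A, a fall of -1.32 (SE 0.24, adjusted p = 0.00243). Every AIN-76A array lay above every chow array.

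The 6 MHC class II genes had positive differences, with a median of 0.68 and no call. Without AIN-76A replicate C the median was 0.39. H2-Aa had 7.94, 8.13, 8.03, 7.66 and 8.46 on LRD-5001, against 7.78, 5.83, 7.73, 7.10 and 7.48 on AIN-76A, a difference of 0.86 (adjusted p = 0.659) with overlap. Of 8 B cell markers 1 fell. This was Ighm, the mu heavy chain, with 5.49, 4.94, 4.99, 4.85 and 5.60 on LRD-5001, against 6.60, 5.97, 8.24, 8.62 and 8.22 on AIN-76A. Its diets did not overlap, and the fall of -2.36 (SE 0.56, adjusted p = 0.0325) ended without any 1 of 8 arrays (adjusted p up to 0.143). Of the 10 other Ighm probe sets 5 had the same sign. The B cell genes Cd79a and Cd79b differed by 0.15 and -0.18, and the mean of the B cell list was 2.96 to 3.11 on LRD-5001 arrays and 3.10 to 3.40 on AIN-76A arrays. Markers of neutrophils, T and NK cells, endothelium, bile duct, red cells, pancreas and fat had no call.

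One interferon-induced gene of 19 fell, and the list median was -0.37. Oas1a, an antiviral RNA sensor, had 5.56, 4.76, 5.62, 5.09 and 5.60 on LRD-5001, against 5.90, 6.47, 5.72, 6.76 and 6.46 on AIN-76A, a fall of -0.94 (SE 0.21, adjusted p = 0.0199) that ended without any 1 of 5 arrays (adjusted p up to 0.105). Without AIN-76A replicate B 2 of the 19 fell. Among 21 genes of metals and iron 1 fell, Slc30a10, a manganese exporter, with 6.10, 5.95, 5.62, 5.76 and 5.53 on LRD-5001, against 6.52, 6.05, 6.92, 7.04 and 7.10 on AIN-76A. The AIN-76A replicate C value of 6.05 lay below LRD-5001 replicate B, and the call (difference -0.93, SE 0.22, adjusted p = 0.0342) ended without any 1 of 7 arrays (adjusted p up to 0.138). The genes that handle arsenic had no call among 7, with a median of 0.05. As3mt, the arsenic methyltransferase, averaged 6.37 ± 0.20 on LRD-5001 and 6.60 ± 0.24 on AIN-76A (SD, n = 5 each; difference -0.23, adjusted p = 0.964). No member passed among 13 genes of glucocorticoid action, 10 of selenium, 27 of the growth hormone axis, 31 chaperones, 19 cell cycle genes, 30 genes of complement and coagulation or 35 of the respiratory chain.

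The largest fall of all belonged to Tff3, a trefoil peptide known from intestinal goblet cells. It had 5.94, 5.79, 5.50, 5.71 and 4.44 on LRD-5001, against 7.49, 10.26, 9.08, 9.60 and 10.67 on AIN-76A, a 15.4-fold lower signal (difference -3.94, SE 0.65, adjusted p = 0.000593). The diets did not overlap and the AIN-76A values spread widely, with replicates C, E and F the highest. None of the other 6 intestine markers passed, and Vil1 and Muc2 were dim on both diets, at 2.09 ± 0.13 and 2.22 ± 0.16 on LRD-5001 and 2.00 ± 0.12 and 2.29 ± 0.30 on AIN-76A (SD, n = 5 each). Scara5, a scavenger receptor that takes up ferritin, had 3.18, 5.70, 4.17, 4.56 and 4.26 on LRD-5001, against 5.94, 7.28, 7.33, 8.01 and 8.39 on AIN-76A, a fall of -3.02 (SE 0.57, adjusted p = 0.00391) with the highest chow array just under the lowest purified-diet array. St6gal1, which adds sialic acid to glycoproteins, had 6.57, 7.75, 6.93, 7.23 and 7.29 on LRD-5001, against 8.55, 9.33, 8.46, 9.05 and 9.03 on AIN-76A, a fall of -1.73 (SE 0.28, adjusted p = 0.000472).

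Further genes among the 15 largest falls without overlap were Slc16a6, a monocarboxylate transporter family member, Arsg, a lysosomal sulfatase, and Cd9, a tetraspanin. Slc16a6 had 3.96, 3.25, 3.27, 3.16 and 3.15 on LRD-5001, against 4.18, 4.30, 5.41, 4.90 and 5.81 on AIN-76A, a fall of -1.56 (SE 0.27, adjusted p = 0.00113). Arsg fell by 1.22 (adjusted p = 0.00627), and Cd9 by 1.37 (adjusted p = 0.0464), the Cd9 call ending without any 1 of 9 arrays (adjusted p up to 0.153).

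Among the largest rises in no list, Clec2h, a lectin-like membrane protein, had 7.21, 7.37, 6.73, 7.38 and 6.87 on LRD-5001, against 3.78, 3.84, 2.66, 4.06 and 3.05 on AIN-76A. This 12.4-fold higher signal had the smallest p of all named genes (difference 3.63, SE 0.32, adjusted p = 8.07e-09), and both other Clec2h probe sets passed in the same direction. Hsd17b6, a steroid and retinol oxidoreductase, had 9.02, 8.89, 8.49, 8.83 and 8.96 on LRD-5001, against 8.21, 4.58, 6.49, 6.11 and 5.43 on AIN-76A, a rise of 2.67 (SE 0.52, adjusted p = 0.00595), with an adjusted p of 0.0748 without the 8 arrays that stand apart. Ddah1, which degrades the nitric oxide synthase inhibitor dimethylarginine, had 8.61, 8.96, 8.56, 8.98 and 9.13 on LRD-5001, against 7.23, 4.29, 7.06, 6.66 and 6.96 on AIN-76A. It rose by 2.41 (SE 0.53, adjusted p = 0.0175), but not without AIN-76A replicate C (adjusted p = 0.0946) or LRD-5001 replicate F (0.057). The aldo-keto reductase Akr1c19 had 8.54, 9.25, 9.35, 9.01 and 9.36 on LRD-5001, against 7.70, 5.95, 6.66, 6.80 and 6.88 on AIN-76A, a rise of 2.31 (SE 0.35, adjusted p = 0.000194). The unnamed transcript 9130409I23Rik rose by 2.71 (SE 0.40, adjusted p = 0.000165).

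The same diets were compared in mice that received arsenite, on 29 other arrays that share no sample with the controls, although the fit's estimate of spread is common to both. Averaged over 10 ppb in water, 100 ppb in water and 10 ppb in food, 1151 probe sets passed (2.56%), 763 higher (1.69%) and 388 lower (0.862%) on LRD-5001. After quantile normalization the split was 726 higher and 576 lower. All 162 genes that passed in control mice had the same sign in the mean over the exposures. By that mean, 107 of the 115 rises and 41 of the 47 falls passed too, where 2.62% of all genes rose and 1.36% fell. A single exposure could differ in sign. Scara5, which fell in controls, differed by 0.15 at 10 ppb in water, -2.52 at 100 ppb in water and -1.46 at 10 ppb in food. The risen genes had a median difference of 1.06 in controls and 0.82 at the exposures, and the fallen genes of -1.09 in controls and -0.76 at the exposures. The control difference was the larger in size for 138 of the 162. These genes were chosen for passing in controls, so their larger differences there are a description. The change between controls and exposures passed limma's test for 0 of 45037 probe sets (0%, smallest adjusted p = 1.0), with 1440 at an unadjusted p under 0.05 (3.2%).

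Gsta2 differed by 4.94 in controls and 4.36 at the exposures, Clec2h by 3.63 and 3.64, and Apoa4 by -2.73 and -3.10. Tef, with the second smallest p for the change among genes, differed by 1.64 in controls, against 0.47, 0.62 and 0.91 at 10 ppb in water, 100 ppb in water and 10 ppb in food. Its change was 0.98 (SE 0.22, adjusted p = 1.0). Arntl differed by -1.77 in controls and -0.94 at the exposures, Ciart by 0.89 and 0.07, and Moxd1, a monooxygenase-like gene chosen after its values were seen, by -2.62 and -0.77. The Moxd1 arrays overlapped in controls, with 8.98, 4.70, 7.11, 8.93 and 6.07 on LRD-5001, against 8.30, 9.79, 10.12, 10.46 and 10.21 on AIN-76A, and its control call (adjusted p = 0.0175) ended without any 1 of 4 arrays (adjusted p up to 0.0904). Cyp1a2 and Cyp7a1, which did not pass in controls, differed by 1.58 (adjusted p = 0.00033) and 1.91 (adjusted p = 0.000872) at the exposures. A test past the threshold in one set and not in the other does not show that the sets differ.

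**Figure D5:**
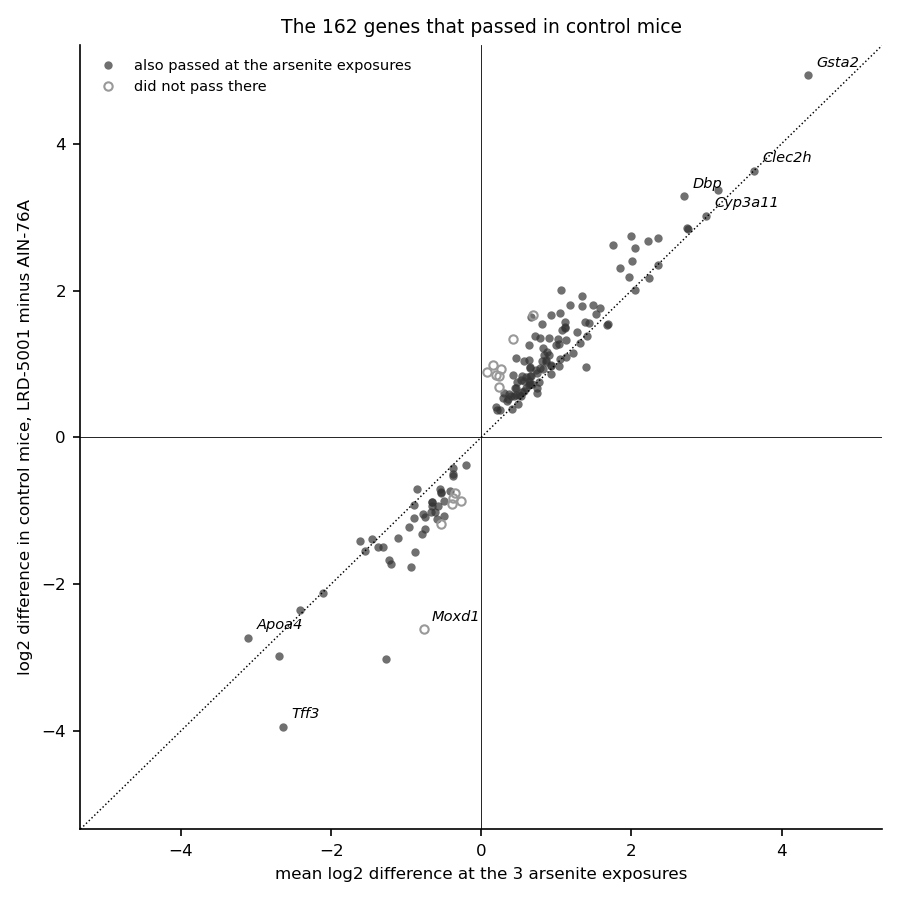
Difference LRD-5001 minus AIN-76A in control mice (vertical, log2) against the mean difference at the 3 arsenite exposures (horizontal, log2) for the 162 genes that passed in controls, with filled points where the gene passed at the exposures too and a dotted line of equality. All 162 points lie in the quadrants of equal sign, from Gsta2 at 4.94 in controls and 4.36 at the exposures to Tff3 at -3.94 in controls and -2.64 at the exposures.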

How the data were processed

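Log2 expression values per probe set were deposited by the authors after RMA, per the submitters' processing notes. Which program ran RMA, and with what settings, is not given in the sources used here. RMA draws dim probe sets together, so differences of dim genes can be understated. Values ran from 1.166 to 14.15, every column of values was matched to a sample (0 were not), and precision is limited by the number of arrays. No further normalization or filter was applied. The closest pair among the 59 arrays correlated at 0.994 and differed with an SD of 0.224, so none was taken as a duplicate. Of 45037 probe sets tested, 34945 have 1 gene symbol in the platform annotation, and 10092 with several or no symbol were not named. Identifiers of 34741 were found in the RefSeq table for GRCm38.p6, and 0 symbols needed an update. A gene was represented by the probe set whose mean over the 59 arrays was highest, which gave 18193 genes, 9010 of them with more than 1 probe set.

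The 39 five-week arrays, in 8 groups, entered 1 linear model in limma 3.58.1 (R 4.3.3) with 31 residual degrees of freedom, and the diets were contrasted in controls, over the 3 arsenite exposures, and between these 2. Benjamini-Hochberg adjustment covered all probe sets tested, at a threshold of 0.05. The fit was tested on simulated data. The genes named are, among those that passed and whose arrays do not overlap, the 15 largest rises and 15 largest falls, members of 45 lists (30 pathways and 15 cell types, with 719 of 801 entries measured), and the genes with the smallest p for the change with exposure. The comparison and the lists were chosen with earlier results of these data known, so counts over a list are descriptions. The median SE of a difference was 0.129. Alternatives were quantile normalization, a filter on dim probe sets, 1 probe set per gene, a variance trend, array weights, other sets of arrays in the fit, the 8 arrays that stand apart, the lowest of each five-week group on the first component, as a block or left out, the replicate letter as a block, and each array left out in turn. The labels call the replicates of all groups by letters. Deviations of same-lettered control samples correlated positively across the diets for E and F (0.35 and 0.29) and negatively for B, C and D. The fit has no pairing. Injected mice were not analysed here.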

Additional observations from a re-analysis of the deposited data

Results flagged for a closer look

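Of 152 groups of 5 arrays examined among the named genes, 14 held 1 array far from the other 4, by a gap over the range above 0.71, where chance gives about 1 in 20. On LRD-5001, Cyp26a1 was 8.423 in replicate B against 7.198 to 7.455 in the others, Slc16a6 was 3.957 in replicate B against 3.149 to 3.267, and Cyp3a25 was 10.666 in replicate B against 10.993 to 11.062. Abcc3 was 7.901 in replicate E against 7.164 to 7.369, and Ephx1 was 10.356 in replicate E against 10.081 to 10.141. Ugt2b5 was 12.119 in LRD-5001 replicate D against 11.897 to 11.949, and Nr1i3 was 7.485 in LRD-5001 replicate F against 7.157 to 7.222. On AIN-76A, replicate C was low for Ddah1 (4.294, others 6.657 to 7.226), Gstm4 (5.119, others 6.098 to 6.461), Aox1 (4.933, others 6.611 to 7.259) and Fmo5 (8.22, others 8.982 to 9.195). Replicate E was low for Dbp (3.099, others 5.828 to 6.925) and high for Aldh1a7 (10.802, others 9.882 to 10.138). Cth was 10.564 in AIN-76A replicate B against 9.746 to 9.914 in the others.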

How the results depend on the processing

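The 256 probe sets that passed in control mice became 165 with only the groups compared in the fit, 157 with all 59 arrays, 434 with the 8 arrays that stand apart (1 in each five-week group) as a block and 686 with array weights. Leaving out 1 array at a time gave 165 to 341, and leaving out the arrays that stand apart gave 272. Quantile normalization gave 322, the filter on dim probe sets 333, 1 probe set per gene 187 and a variance trend 261. The replicate letter was not used to pair the samples: deviations of same-lettered samples correlated from -0.39 to 0.35 and only E and F correlated best with their own letter. With the replicate block 221 passed. At the arsenite exposures the 1151 became 2133 without the arrays that stand apart, 2090 with them as a block and 2259 with array weights, and leaving out 1 array gave 964 to 1588. The count for the change between controls and exposures was 0 under every alternative run. Of the 162 genes, 76 kept their call in all 10 fits that leave out an array. Quantile normalization ended 10 calls, the fit of only the groups compared 79, that of all 59 arrays 69, and leaving out AIN-76A replicate C 65. Some calls that held whichever array was left out ended in other fits. With only the groups compared, these included Nr1i3, Aox1, Chka, Slc16a6, Slco1a4, Elovl5 and Ehhadh. With all 59 arrays, they included Khk, Hmgcs1, Fdft1, Apoc2, Cyp2c29, Cyp2c37, Cyp2c54 and Avpr1a. No gene that passed changed sign under an alternative run. The cause of these shifts was not tested.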

Other observations

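Of the 162 genes that passed, 97 belong to no list, and those named here were chosen after their values were seen. Breakdown of branched-chain amino acids was represented by Ivd, isovaleryl-CoA dehydrogenase, which had 8.86, 8.57, 8.41, 9.01 and 8.74 on LRD-5001, against 8.04, 7.55, 8.27, 7.84 and 7.74 on AIN-76A, and rose by 0.83 (SE 0.17, adjusted p = 0.00963). Mccc2 and Mmut, later steps of that breakdown, rose by 0.67 (adjusted p = 0.0447) and 0.58 (adjusted p = 0.0469), and each call ended without any 1 of 9 arrays (adjusted p up to 0.211 and 0.21). Abat, which degrades GABA, rose by 0.88 (adjusted p = 0.00019), although another of its probe sets had the opposite sign, and Upb1, the last step of pyrimidine breakdown, by 0.75 (adjusted p = 0.000357). Slc7a2, a carrier of arginine and lysine, had 9.51, 9.68, 9.90, 9.86 and 9.99 on LRD-5001, against 8.92, 8.11, 8.57, 8.71 and 8.31 on AIN-76A, with a rise of 1.26 (SE 0.19, adjusted p = 0.000197). Entpd5, a nucleotidase of the endoplasmic reticulum, had 8.35, 8.57, 8.47, 8.82 and 8.49 on LRD-5001, against 7.48, 6.79, 7.27, 7.35 and 7.15 on AIN-76A. The Entpd5 arrays were fully separate, and the rise of 1.33 (SE 0.16, adjusted p = 3.12e-06) was shared by 4 of its 5 other probe sets. Cyb5a and Pgrmc1, whose proteins assist cytochromes P450, rose by 0.56 (adjusted p = 0.000444) and 0.46 (adjusted p = 0.0021).

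Falls outside the lists included cell surface and matrix genes. The vasopressin receptor gene Avpr1a had 5.50, 5.46, 5.43, 5.32 and 5.32 on LRD-5001, against 6.07, 6.12, 6.75, 6.59 and 6.59 on AIN-76A, a fall of -1.02 (SE 0.19, adjusted p = 0.0022) without overlap. Fibronectin (Fn1) had 10.25, 10.62, 10.53, 10.69 and 10.78 on LRD-5001, against 11.17, 11.33, 11.07, 11.63 and 11.43 on AIN-76A, a fall of -0.75 (SE 0.15, adjusted p = 0.00597). The choline kinase Chka had 4.24, 4.10, 4.04, 4.36 and 3.83 on LRD-5001, against 6.07, 4.13, 6.41, 6.29 and 6.05 on AIN-76A. Only AIN-76A replicate C lay among the chow arrays, and the fall was -1.67 (adjusted p = 0.00604). These 3 calls held whichever of the 10 arrays was left out. The Chka call ended when the fit held only the control arrays, and the Avpr1a call ended when the fit held all 59 arrays.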
